A study of Homo sapiens with 6 samples.

Results

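RNA polymerase III genes have left many pseudogene copies in the human genome, and 222 of the 2926 copies annotated in 7 families carried at least 1 peak of RNA crosslinked to an HSP70 chaperone. The members were chosen by name and by peak. They are RefSeq GRCh38 genes of the class pseudogene whose symbols mark them as copies of U6, 7SK, 5S, 7SL, Y, RMRP or transfer RNA, and that shared 1 bp or more with a peak in any of 4 lists. Across the whole series, 2927 of 59712 RefSeq genes had such a peak. Because peaks chose the members, the counts and scores below describe them and carry no test.

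FLASH-seq recovers and sequences RNA fixed by ultraviolet light to a purified protein. HEK293 Flp-In T-Rex cells, a human embryonic kidney line with a tetracycline-controlled transgene, made 3xFLAG-HBH-tagged GFP, HSPA1A or HSPA8. All groups received 1 µg/ml tetracycline and UV-C light, and each bait had 2 biological replicates. HSPA1A is the stress-inducible HSP70 and HSPA8 its constitutive relative, both expressed here as an added tagged copy. The 4 lists are the HSPA1A and HSPA8 replicates, and peaks of GFP, the control bait, were not analysed here. The values below were therefore not set against peaks of a control bait. Whether the authors called their peaks against GFP is not given in the sources used here.

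Polymerase III makes short structured RNAs. U6 works in the spliceosome, 7SK holds the elongation factor P-TEFb in an inactive complex, 5S is part of the large ribosomal subunit, 7SL is the scaffold of the signal recognition particle, Y RNAs bind Ro60, and RMRP is the RNA of RNase MRP. Most of their pseudogenes are thought to have arisen by copying of the RNA back into the genome, so they resemble the transcript but often lack the upstream promoter that U6 and 7SK genes need. A read from a functional gene can match a near-identical copy equally well. How reads with several matches were treated is not given in the sources used here, so a peak on a copy cannot be told apart from signal of the functional gene or of another copy.

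The 3 families with most members were U6 with 83 of 1277 annotated pseudogenes, 7SK with 74 of 293 and 5S with 49 of 510. The 7SL family had 11 members of 683, the Y RNA family 4 of 75 and the transfer RNA family 1 of 87. The lone RMRP pseudogene had no peak. As shares of the annotated copies these are 6.50% for U6 (95% Wilson interval 5.27 to 7.99), 25.3% for 7SK (20.6 to 30.5), 9.61% for 5S (7.34 to 12.5), 1.61% for 7SL (0.902 to 2.86), 5.33% for Y and 1.15% for transfer RNA. The intervals cover counting error only, and near-identical copies are not independent. Over all 7 families 7.59% had a peak, beside 4.9% of all RefSeq genes and 2.05% of the 12654 pseudogenes outside these families.

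Outside transfer RNA, every functional gene compared here was covered in at least 1 list. Peaks lay on 5 of 5 U6 genes, 17 of 17 5S genes, RN7SK, RMRP, 3 of 3 7SL genes and 4 of 4 Y RNA genes, and on 238 of 443 nuclear transfer RNA genes. For transfer RNA, 53.7% of the genes and 1.15% of the pseudogenes were covered.

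For U6, HSPA1A replicate 1 had 82 members and replicate 2 had 52, while HSPA8 replicate 1 had 52 and replicate 2 had 46. The 7SK family had 65, 42, 53 and 20 in the same order. The 5S family had 40, 33, 41 and 27. The first HSPA1A list was the longest for U6 and 7SK, and the second HSPA8 list the shortest for U6, 7SK and 5S. In all families together the 4 lists held 197, 133, 153 and 96 members, which is 6.73%, 4.55%, 5.23% and 3.28% of the annotated copies, and the same lists held 1.56%, 1.04%, 1.46% and 0.885% of the other pseudogenes. Of all RefSeq genes they held 3.04%, 2.0%, 3.05% and 1.28%.

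**Figure D1:**
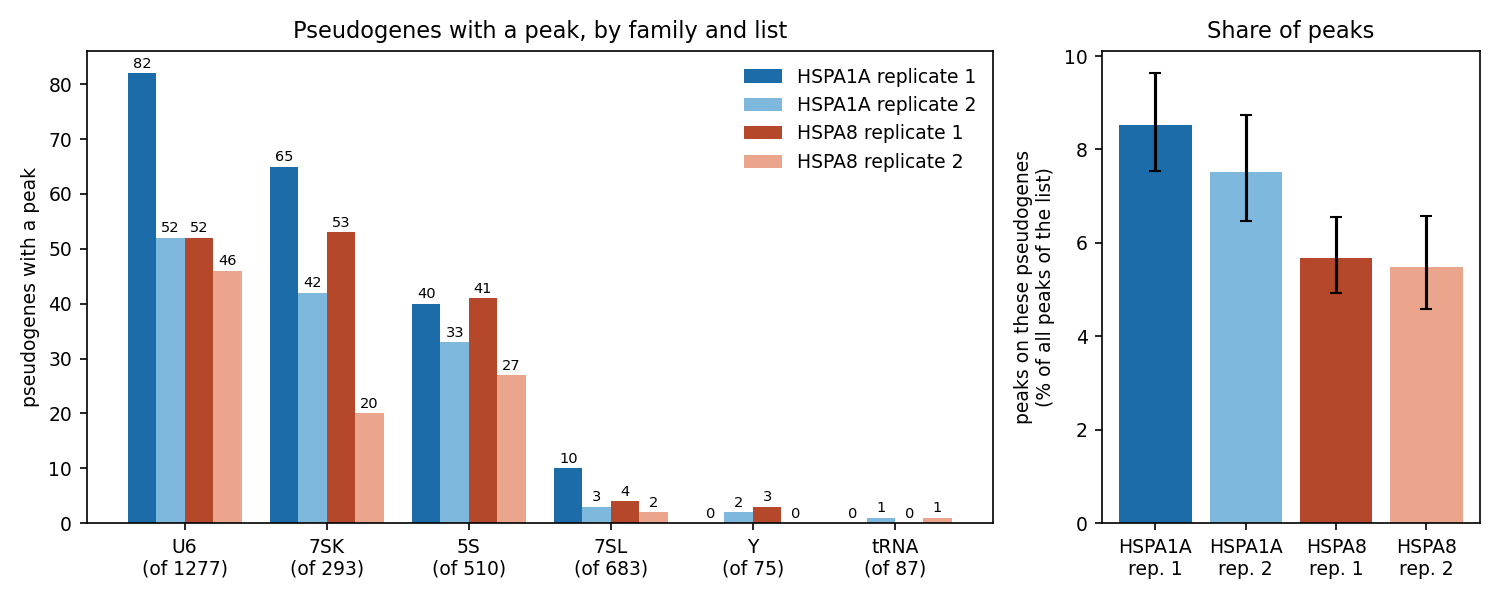
Left: number of pseudogenes with a peak (y axis) in each family (x axis, with the number annotated) and each of the 4 lists (bars). Right: peaks on these pseudogenes as a percentage of all peaks of the list, with 95% Wilson intervals over peaks. U6 and 7SK have the tallest bars in all lists except HSPA8 replicate 2, where 5S is above 7SK, the 7SK bar falls from 65 to 20 between the first HSPA1A and the second HSPA8 list, and the shares run from 8.53% down to 5.49%.

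Repetition over the lists differed by family. All 4 lists held 82 members: 35 of U6, 26 of 5S, 19 of 7SK and 2 of 7SL, which is 2.8% of the annotated copies beside 0.695% of the other pseudogenes and 0.873% of all RefSeq genes. A further 63 members were in a single list. Among 5S members 26 were in all 4 lists and 14 in only 1, whereas among 7SK members 19 were in all 4 lists, 12 in 3, 25 in 2 and 18 in 1. The HSPA1A lists shared 124 members (4.24% of the annotated copies), beside 0.909% of the other pseudogenes and 1.47% of all RefSeq genes. The HSPA8 lists shared 88 (3.01%), beside 0.759% and 0.983%.

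Where a member was in more than 1 list, its peaks lay at about the same place in most cases. Of the 124 members in both HSPA1A lists, 122 had peaks that overlapped on the same strand, and of the 88 in both HSPA8 lists all 88 did. The centres of the best peaks lay a median of 2 bp apart for each bait. Between baits, overlapping peaks were found for 136 of 136 members shared by the first replicates and for 84 of 85 shared by the second ones. The 7SL members agreed less closely, with median distances between centres of 6.5 to 36.75 bp by pair of lists, from 2 or 3 members each. Overlap between lists was not counted for genes outside the families, so these counts have no background beside them. All 222 members had their peaks on 1 strand only, including the 159 found in 2 or more lists. Outside these families, 156 of 160 pseudogenes in 2 or more lists (97.5%) had peaks on 1 strand.

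The score is the whole number the authors gave each peak, with no meaning stated, and it is used here to rank and describe peaks within a list. The rank quoted is the percentile of a score in its own list. Peaks on the pseudogenes had median scores of 11 and 8 for HSPA1A and 10 and 14.5 for HSPA8, where the lists as a whole had 10, 13, 10 and 22. Their median rank was 53.5, 32.3, 49.5 and 39.4. They were also narrow, with a median width of 37, 40, 40 and 41 bp against 48, 44, 57 and 51 bp for the lists as a whole.

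Among U6 pseudogenes, 5 had scores within or above the range of functional U6 genes in every list. RNU6-4P (chromosome 3, 181231737 to 181231842, inside the non-coding gene SOX2-OT and on its strand) scored 195 and 60 with HSPA1A and 121 and 52 with HSPA8. RNU6-3P (chromosome X, 141118031 to 141118136) scored 190, 61, 117 and 50 in the same order. RNU6-5P (chromosome 2, 174557967 to 174558072) scored 180, 60, 117 and 50, RNU6-6P (chromosome 10, 13217269 to 13217375) scored 179, 61, 113 and 50, and RNU6-36P (chromosome 12, 97721716 to 97721821) scored 175, 56, 112 and 42. The functional gene RNU6-1 scored 183, 62, 115 and 51, and RNU6-7 scored 168, 54, 90 and 40. The best scores of the 5 functional genes ran from 168 to 193, 54 to 63, 90 to 121 and 40 to 51.

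The peaks of these copies also sat close to those of the functional genes, with RNU6-36P as a partial exception. Positions are counted from the 5′ edge of the annotated gene on the strand of the peak. The best peak of RNU6-4P ran over positions 26 to 104, 25 to 104, 25 to 107 and 7 to 107, and the functional U6 genes had median limits of 26 to 101, 23 to 104, 28 to 107 and 8 to 107. On RNU6-36P the best peak ran over 33 to 101, 29 to 105, 28 to 107 and 33 to 107. It thus began later than the functional median in both HSPA1A lists and, at 33 against 8, in HSPA8 replicate 2. RNU6-33P followed with 185, 55, 111 and 39, under the functional range in HSPA8 replicate 2 alone. In each list, 5 or 6 U6 pseudogenes within 3 bp of the functional length reached the lowest best score of a functional gene.

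Pairs of U6 copies on different chromosomes had nearly the same values. RNU6-11P (chromosome 7, inside the span of HYAL4) scored 161, 52, 85 and 37, and RNU6-37P (chromosome 1, inside KIF1B on its strand) scored 161, 50, 87 and 37. Both had their best peak at positions 26 to 97 in HSPA1A replicate 1 and 7 to 99 in HSPA8 replicate 2. RNU6-42P (chromosome 3, inside PAK2 on the opposite strand) scored 136, 42, 75 and 34, with peaks that began at position 39 or 41 in every list. RNU6-15P and RNU6-16P came next with 122, 39, 66, 23 and 99, 35, 56, 16, and their best peaks ended at position 83 or before in every list.

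Taken as a whole, the U6 members carried shorter and weaker peaks than the functional genes. Of the 35 in all 4 lists, the copies named above among them, the median best score was 43, 19, 23 and 16. Pseudogenes within 3 bp of the functional length had peaks of median width 37, 42, 40 and 41 bp, and functional genes 76, 82, 80 and 100 bp. Of all 267 U6 peaks, 57 began at or before position 15, 108 between positions 16 and 55 and 102 after position 55, and 98 of the last group ended within 3 bp of the 3′ edge. The coverage of U6 peaks was highest at positions 67 to 73 in both HSPA1A lists, where 52.6% and 80.7% of peaks lay. With HSPA8 it was highest at positions 73 to 75 in replicate 1 (70.7%) and 72 to 99 in replicate 2 (60%).

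**Figure D2:**
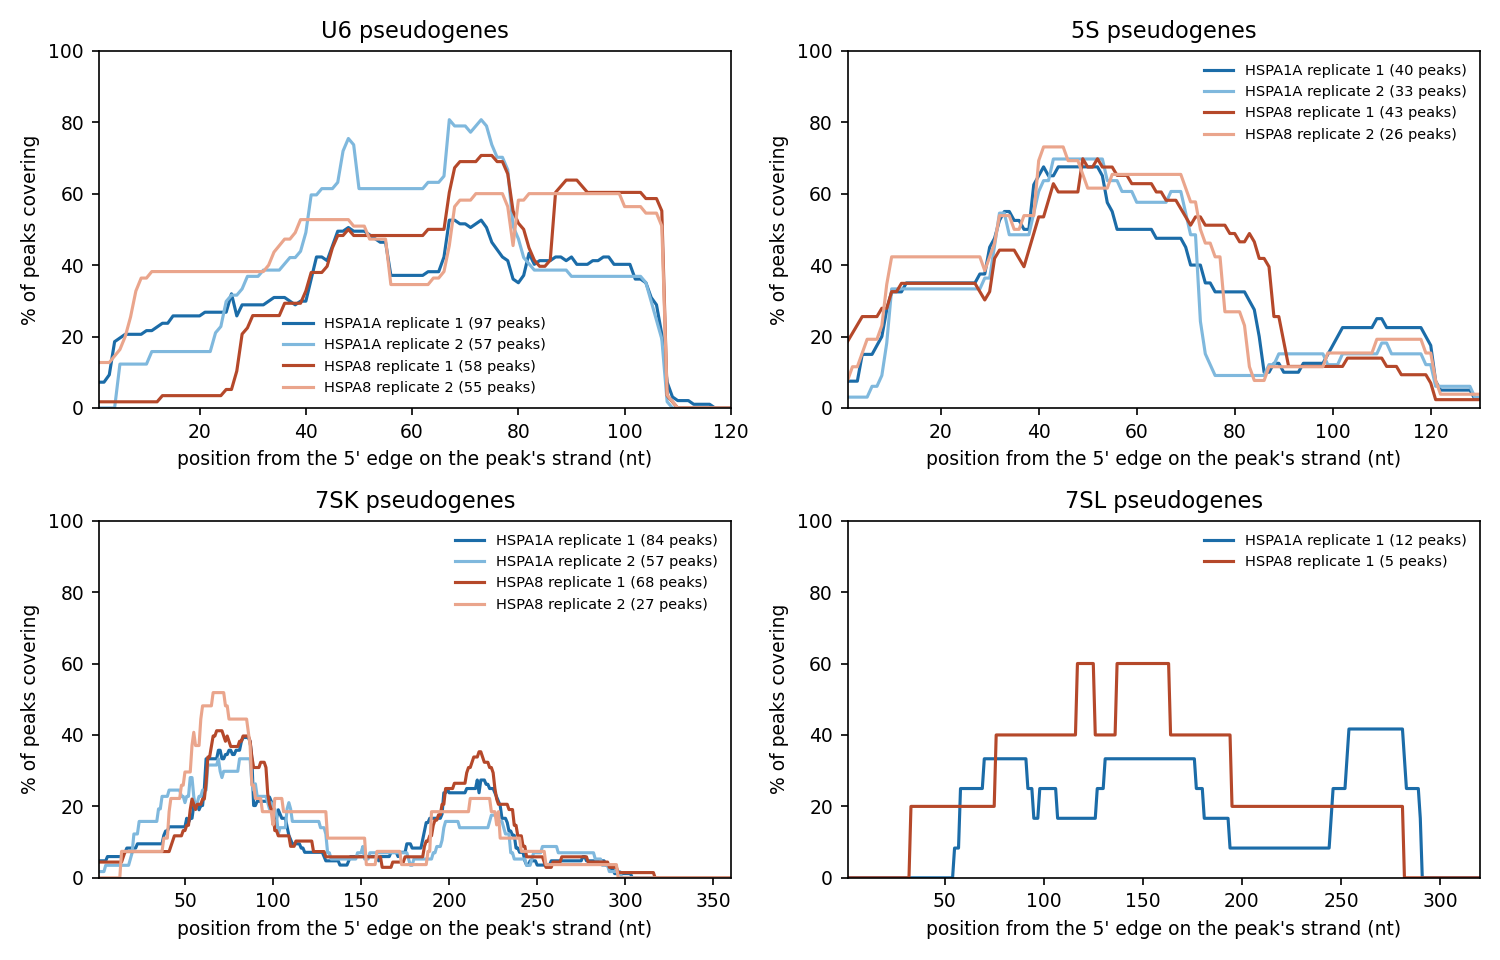
Percentage of peaks on members (y axis) that cover each position of the pseudogene, counted in nucleotides from the 5′ edge on the strand of the peak (x axis), for lists with 5 or more peaks in the family. U6 coverage is highest at positions 67 to 73 with HSPA1A, at 73 to 75 in HSPA8 replicate 1 and at 72 to 99 in HSPA8 replicate 2. Many U6 peaks end at the 3′ edge. 5S peaks gather in the first part of the gene, and 7SK coverage is highest between positions 66 and 87.

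Many U6 peaks were copies of each other in shape. A peak was called repeated when another member of its family had one of equal width, score and distance to the 3′ edge in the same list. This held for 111 of 267 U6 peaks (41.6%), against 14 of 236 for 7SK (5.93%) and 8 of 146 for 5S (5.48%). The largest group held 11 U6 members in HSPA1A replicate 2, each with a 41 bp peak of score 8 that ended 1 bp past the 3′ edge, among them RNU6-12P, RNU6-13P and RNU6-17P. Of these, RNU6-12P and RNU6-13P also shared a 40 bp peak of score 27 in HSPA1A replicate 1 and a 40 bp peak of score 15 in HSPA8 replicate 2.

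U6 copies with low numbers in their symbols were covered most often. Of the 45 pseudogenes RNU6-nP with n at or under 50, 38 had a peak (84.4%), and 30 of these were in all 4 lists. Above 50, 45 of 1232 had a peak (3.65%), and 5 were in all 4 lists. The limit of 50 was chosen after the values were seen. Length separated the U6 copies less: 64 of 899 within 3 bp of the functional length had a peak (7.12%), and 19 of 378 of other lengths (5.03%).

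The first HSPA1A list held U6 members that no other list held. There were 20 of them, all with best scores from 5 to 7, whereas the 35 members in all 4 lists had a median of 43 there. Only RNU6-463P, with a score of 6 in HSPA8 replicate 1, was absent from that list. The median score of that whole list was 10, so these 20 lie under it. That list alone also held 10 7SK, 5 5S and 6 7SL members, 41 members with those of U6. The share of all RefSeq genes or of other pseudogenes found in that list alone was not computed.

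5S pseudogenes had the highest scores of the members. RNA5SP370 (chromosome 12, 104125236 to 104125325, inside the span of NFYB) scored 371 and 167 with HSPA1A and 653 and 113 with HSPA8, the highest of all members in each list, shared with RNA5SP389 in the last. RNA5SP389 (chromosome 14, 106636572 to 106636861) scored 367, 163, 646 and 113. RNA5SP145 (chromosome 3, 151188099 to 151188223, inside MED12L on the same strand) scored 341, 159, 604 and 103. RNA5SP149 and RNA5SP226 followed with 321, 155, 556, 97 and 297, 147, 473, 95. Among functional genes, RNA5S1 scored 541, 282, 1120 and 190, and RNA5S9, the lowest of the 17, scored 332, 160, 587 and 104.

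RNA5SP370, RNA5SP389 and RNA5SP145 thus reached about the scores of RNA5S9 but of no other functional 5S gene. RNA5SP370 and RNA5SP389 were above RNA5S9 in all 4 lists. Their best peaks were similar in width: 75, 63, 81 and 69 bp for RNA5SP370, and 75, 64, 81 and 68 bp for RNA5SP389. On RNA5SP370 (90 bp) they began at positions 9, 10, 3 and 9, and on RNA5SP389 (290 bp) at positions 109, 110, 103 and 109. Where the 5S-like part lies within that longer annotation was not checked. The best peaks of RNA5S9 were 65, 63, 73 and 64 bp wide and began at positions 9, 10, 3 and 9, as on RNA5SP370. Over all 17 functional 5S genes the peaks were wider, with a median width of 111 or 112 bp.

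The 26 5S members in all 4 lists had a median best score of 79, 34.5, 84 and 31. Their median was 1.84, 1.82, 3.65 and 1.94 times that of the U6 members in all 4 lists, list by list, so 5S copies ranked above U6 copies in each list. Among members annotated at under 1000 bp, 5S peaks that began at or before position 15 had a median score of 97 (51 peaks), those beginning between 16 and 55 a median of 20 (67 peaks), and those beginning between 56 and 120 a median of 8.5 (24 peaks). These medians pool the scores of the 4 lists, so they mix lists. The last group includes the peaks of RNA5SP389, which began between positions 103 and 110 of its 290 bp annotation. RNA5SP202 stood apart in place, since its peaks ran from positions 31 or 32 to 120 in every list, with scores of 222, 129, 415 and 88.

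Other named 5S copies are set out here by the place of their peaks. RNA5SP429 (chromosome 16, inside the span of CDH1) scored 248, 137, 391 and 82, with peaks from position 8 to position 69 or 70 in every list. RNA5SP141 and RNA5SP150, both on chromosome 3 and in no host gene, scored 186, 71, 381, 50 and 175, 67, 371, 47, with best peaks that ended between positions 48 and 53. RNA5SP150 had further peaks at positions 89 to 111 in HSPA1A replicate 2 (score 10) and 84 to 113 in HSPA8 replicate 1 (score 9). RNA5SP216 (inside the span of HINT3) ended earlier, between positions 39 and 45, and scored 133, 40, 287 and 40. RNA5SP161, RNA5SP298 and RNA5SP481, on chromosomes 4, 10 and 20, all began between positions 29 and 32. Their scores were 83, 38, 84, 34 for RNA5SP161, 84, 35, 89, 34 for RNA5SP298 and 75, 34, 80, 31 for RNA5SP481. Scores lay close together in every list for RNA5SP141 and RNA5SP150, and for RNA5SP161, RNA5SP298 and RNA5SP481. These copies were named by score rank, so close scores follow in part from that choice. Copies that began at about the same place also had other scores. RNA5SP202 began at position 31 or 32 and scored 222, 129, 415 and 88. RNA5SP99 began at position 30 or 31 and scored 11 and 5 with HSPA1A and 10 in HSPA8 replicate 1.

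Annotated length matters for reading the 5S family. The members ran from 35 bp (RNA5SP243) to 8505 bp (RNA5SP387), while a functional 5S gene has 121 bp. RNA5SP387 scored 36, 17, 35 and 22, with its peak at positions 41 to 83 in HSPA1A replicate 1, near the 5′ edge of the long annotation. RNA5SP243 scored 125, 48, 217 and 31, with each of its peaks extending upstream of the annotated gene. Of 135 5S pseudogenes within 3 bp of the functional length 14 had a peak, and of 375 others 35 did.

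**Figure D3:**
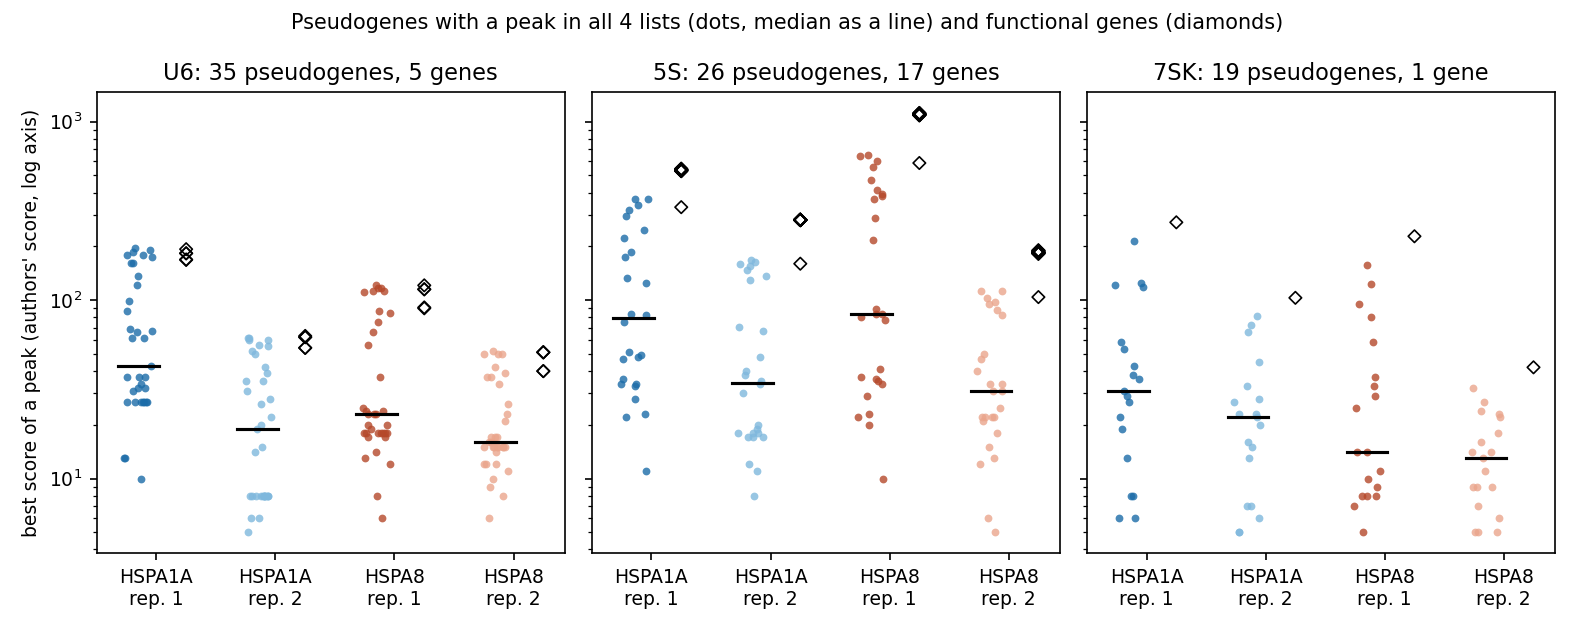
Best score of a peak (y axis, log scale, the authors' score) on pseudogenes found in all 4 lists (dots, one per pseudogene, black line at the median) and on functional genes (diamonds), for each list (x axis) and the families U6, 5S and 7SK. Top U6 copies reach the level of U6 genes, top 5S copies reach RNA5S9 alone, and RN7SKP203, at 214 in HSPA1A replicate 1, stays under RN7SK.

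Of the 7 families, 7SK had the largest share of its copies with a peak. RN7SKP203 (chromosome 2, 76445170 to 76445410) scored 214 and 81 with HSPA1A and 158 and 32 with HSPA8. RN7SKP255 (chromosome 14, 89712511 to 89712750) scored 124, 73, 95 and 27, and RN7SKP71 (chromosome 12, 112267077 to 112267315, inside HECTD4 on the opposite strand) scored 121, 66, 80 and 23. RN7SK itself, on chromosome 6, scored 273, 103, 228 and 42. No 7SK pseudogene reached RN7SK in any list, and the median best score of the 19 members in all 4 lists was 31, 22, 14 and 13.

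The coverage of 7SK peaks was read separately on each side of position 150, a divide set for this description. Before it, coverage was highest between positions 66 and 87, with 39.3%, 33.3%, 41.2% and 51.9% of the peaks of a list. After it, the highest values lay between positions 212 and 227, at 27.4%, 17.5%, 35.3% and 22.2%. The divide returns a highest value on each side in any case, so these values alone do not show 2 separate groups. Of 236 peaks, 24 began at or before position 29, 123 between 30 and 129 and 89 after that. A 7SK member could carry up to 4 peaks in a list, and 41 of 180 pairs of a 7SK member and a list had 2 or more, beside 35 of 232 for U6, 4 of 19 for 7SL and 5 of 141 for 5S. RN7SK was covered over most of its length by 3 or 4 neighbouring peaks in each list, beginning between positions 19 and 39 and ending at position 331.

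The best peaks of single 7SK copies fell in different stretches. Those of RN7SKP203 lay between positions 42 and 162 over the 4 lists, and those of RN7SKP71 between 93 and 177. RN7SKP80 (chromosome 22, inside SERHL2 on the opposite strand) scored 118, 28, 123 and 18, with best peaks further on, between positions 159 and 254. RN7SKP230 (chromosome 5, inside MAN2A1 on the opposite strand) scored 53, 45, 33 and 24, with best peaks between positions 35 and 100.

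Length separated the 7SK copies. Of 93 pseudogenes of 230 to 250 bp, 50 had a peak (53.8%), whereas 24 of 200 of other lengths did (12%). The members had a median length of 240 bp, those without a peak 293 bp, and RN7SK has 332 bp. The length classes were chosen after the values were seen. RN7SKP203, RN7SKP255 and RN7SKP71 all fall in the class of 230 to 250 bp.

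**Figure D4:**
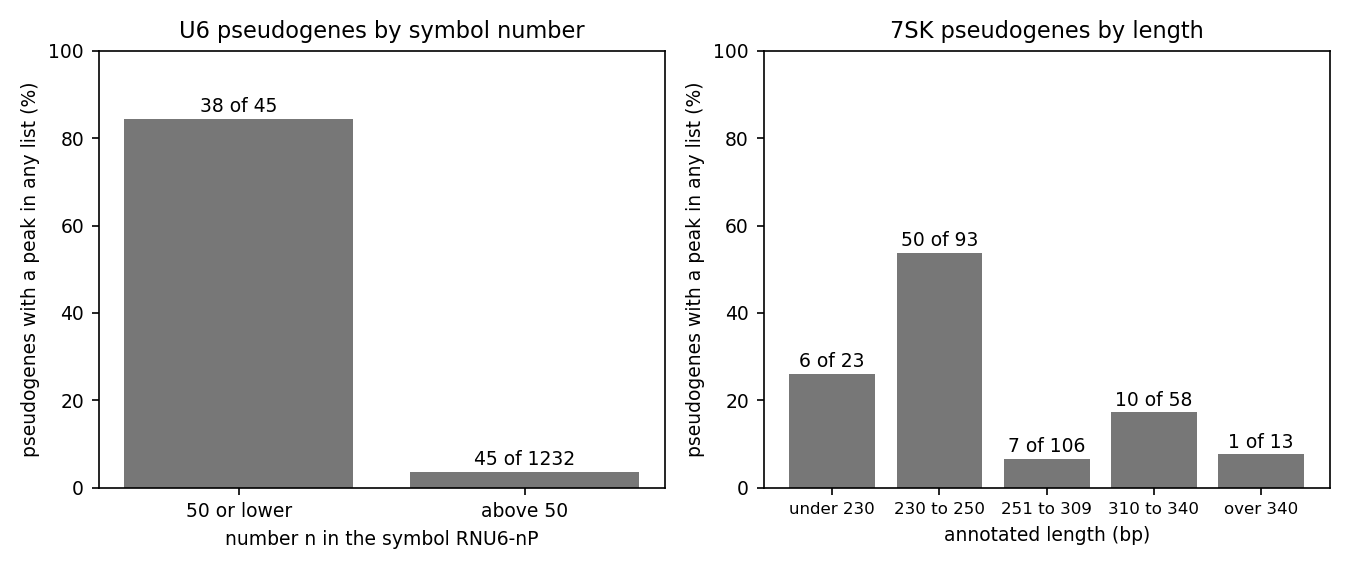
Percentage of annotated pseudogenes with a peak in any list (y axis), for U6 pseudogenes by the number in the symbol and for 7SK pseudogenes by annotated length in bp, with counts above the bars. U6 copies numbered 50 or lower had a peak in 38 of 45 cases, and 7SK copies of 230 to 250 bp in 50 of 93.

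A set of 18 7SK members was found in both first replicates and in neither second one. Their median best score was 6 in HSPA1A replicate 1 (5 to 18) and 6 in HSPA8 replicate 1 (5 to 10). Over all families 22 members showed this pattern, 0.752% of the annotated copies beside 0.44% of all RefSeq genes and 0.269% of the other pseudogenes. The opposite pattern was shown by 1 member, the transfer RNA copy described below (0.0342%, beside 0.0502% and 0.0079%). The lists of the first replicates were also longer, with 2744 and 3131 peaks against 2059 and 2040, and the part of list length in this pattern was not tested.

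7SL pseudogenes were rarely covered, although 7SL RNA is abundant in the cell. RN7SL5P (chromosome 9, 9441998 to 9442310, inside PTPRD on the opposite strand) scored 17, 10, 42 and 6, and RN7SL4P (chromosome 3, 15738515 to 15738786, inside ANKRD28 on the opposite strand) scored 18, 9, 20 and 7. The functional RN7SL1 scored 45, 10, 83 and 6, and RN7SL2 scored 30, 9, 42 and 6. RN7SL3 scored 6, 5 and 24, with no peak in HSPA8 replicate 2. RN7SL4P and RN7SL5P thus scored above RN7SL3 wherever both had a peak, except in HSPA8 replicate 1 for RN7SL4P. RN7SL5P matched or exceeded RN7SL2 in all lists but HSPA1A replicate 1, and RN7SL4P did so in the second replicate of each bait. RN7SL191P, RN7SL359P, RN7SL587P and RN7SL664P, seen in HSPA1A replicate 1 alone, carried the same 37 bp peak of score 9 that ended 12 bp before the 3′ edge.

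Y RNA pseudogenes were covered at low scores. RNY4P5 scored 5 in HSPA1A replicate 2 and 9 in HSPA8 replicate 1, at positions 46 to 94 and 23 to 94. The functional RNY4 had peaks of the same position, width (49 and 72 bp) and score in the same lists. RNY4P1 matched RNY4 in HSPA1A replicate 2, and RNY3P1 (score 6) and RNY4P11 (score 5) were seen in HSPA8 replicate 1 only. By type, 3 of 33 RNY4 pseudogenes, 1 of 16 RNY3 pseudogenes and none of the 16 RNY1 or 10 RNY5 pseudogenes had a peak.

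The transfer RNA family had 1 member, TRK-TTT14-1 (chromosome 14, 73588825 to 73588897, inside the span of HEATR4), a lysine transfer RNA pseudogene. It scored 7 in HSPA1A replicate 2 and 5 in HSPA8 replicate 2, at positions 36 to 65 and 37 to 60. It had no peak in the first replicate of either bait.

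The baits were compared by the share of peaks lying on any annotated pseudogene of the 7 families. That share was 8.53% and 7.53% for HSPA1A and 5.69% and 5.49% for HSPA8, so the baits did not overlap. The means were 8.03% ± 0.707 (SD, n = 2) and 5.59% ± 0.138 (SD, n = 2), which is 2.44 percentage points higher for HSPA1A (two-sided exact permutation test over lists, p = 0.33, the smallest that 2 against 2 lists can reach). Scaffolds outside the chromosomes carried 353 and 617 peaks with HSPA8 and none with HSPA1A. On the chromosomes present in all 4 files the difference was 0.889 percentage points and the baits overlapped (exact permutation test, p = 0.667), and with peaks within 50 bp merged it was 0.354 (exact permutation test, p = 1). Without peaks on abundant RNA genes it was larger, at 4.29 percentage points (12.2% for HSPA1A and 7.91% for HSPA8), and the baits did not overlap (exact permutation test, p = 0.33). The HSPA8 peaks on scaffolds stayed in the lists under this setting, and leaving out both kinds of peak was not run.

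Apart from transfer RNA copies the difference was 2.44 percentage points as well (exact permutation test, p = 0.33). For transfer RNA pseudogenes alone it was -0.000226 percentage points (exact permutation test, p = 1), with 1 peak in each second replicate. By family, the U6 share was 3.53% and 2.77% for HSPA1A and 1.85% and 2.70% for HSPA8. The 7SK share was 3.06% and 2.77% against 2.17% and 1.32%, and the 5S share 1.49% and 1.65% against 1.41% and 1.32%. Over these denominators the baits did not overlap in any of the 3 families. As shares of the peaks on chromosomes alone, the HSPA8 values were 2.09% and 3.87% for U6, 2.45% and 1.90% for 7SK and 1.58% and 1.90% for 5S, while those of HSPA1A stayed as given. The baits then overlapped for U6 and 5S, with the 5S mean higher for HSPA8, and did not overlap for 7SK. The family shares were not tested separately.

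No member was found in both HSPA8 lists and in neither HSPA1A list (0.0% of the annotated copies), whereas 14 were found in both HSPA1A lists alone (0.478%). Beside them stand 0.166% of all RefSeq genes and 0.0237% of the other pseudogenes for HSPA1A alone, and 0.0067% and 0.0079% for HSPA8 alone. The 14 were 6 U6, 6 7SK, 1 5S and 1 7SL pseudogene. RNU6-1072P, RNU6-761P and RNU6-771P scored 19 and 6 each in the HSPA1A lists, RN7SKP160 scored 10 and 8, and RN7SKP8 scored 11 and 7. On RN7SKP160 the best peak of HSPA1A replicate 1 lay at positions 276 to 303, and a weaker one of score 8 at positions 38 to 70 overlapped the peak of replicate 2 at positions 37 to 69. The difference in number between the baits was not tested.

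Many members lie inside other genes. By span, 120 of 222 were inside a protein-coding gene, 18 inside a long non-coding gene and 84 in neither. For copies without a peak, 47.3% were inside a protein-coding gene, beside 54.1% of members. Where the strand of the coding host was known, for 97 members, the peaks lay on its strand in 47 and on the opposite strand in 50. Peaks on members inside coding genes were on the host strand in 52.5%, 49.3%, 51.9% and 57.4% of cases by list, and peaks on coding genes alone in 73.2%, 49.8%, 85.1% and 51.0%.

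No pseudogene lay close to the limit of the definition. The smallest overlaps were 17 bp, on RNU6-842P and RNU6-891P, each in 1 list with a score of 5. The nearest copies left out were RNA5SP425, 73 bp from a peak of score 33, and RNU6-196P, 132 bp from a peak of score 9. No copy without a peak lay within 10 bp of one.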

How the data were processed

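The deposited files are 1 peak list per replicate for HSPA1A and HSPA8. The authors give every peak its coordinates, strand and a score, a whole number with no stated meaning. Per the submitters' processing notes the build was GRCh38 and the tools were Trim Galore 0.4.4, FastQC, STAR 2.6.0b and deepTools, with no roles given. The peak caller, its threshold and the handling of reads with several matches are not given in the sources used here. Per the labels' protocols, random adapter tags were used to merge PCR duplicates.

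Peaks were set against 59712 genes of the RefSeq table for GRCh38.p14 by an overlap of 1 bp or more. The table gives no strand, so matching was done without strand. Host strands came from the RefSeq promoter table of the same build. Positions are 1-based. The members and lists were chosen with earlier results of these data known. Named genes are the 30 members of highest mean score rank among those in all 4 lists, the top 3 per family, up to 5 per bait found in both its replicates alone, the smallest overlaps, the nearest copies left out and the functional genes. Names in the groups of equal peaks, RNA5SP99, RNA5SP387, RNU6-463P and RNY4P1 were added after their values were seen. Read depth is unknown. Shares carry 95% Wilson intervals. Bait shares were compared over the 6 orders of bait labels. The scripts were tested on simulated lists. The tools were scipy 1.17.1, pandas 2.3.3 and numpy 2.4.6 under Python 3.11.15, with matplotlib 3.10.9 for plots.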

Additional observations from a re-analysis of the deposited data

How the results depend on the processing

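Using only peaks with a score at or above the median of their list lowered the members in any list from 222 to 116, those in all 4 lists from 82 to 35, those in both HSPA1A lists from 124 to 59 and those in both HSPA8 lists from 88 to 35, since fewer peaks were used. Leaving out 1 list gave 181 to 221 members and a bait difference of 1.94 to 2.94 percentage points. For transfer RNA pseudogenes, with 1 peak in each second replicate, the difference changed sign to 0.00209 without peaks on abundant RNA genes and to 0.00441 in base pairs, was 0 with scores at or above the median and with equal numbers of top-scoring peaks, and ran from -0.0247 to 0.0243 with 1 list left out. With the replicate number as a block the difference was 2.44 (exact permutation test, smallest possible p = 0.5). The deviations of same-numbered lists in the presence of a peak had r = 0.00932 over 222 members, which leaves out a shift common to all members. Because the members were chosen by their peaks, this r cannot decide whether same-numbered lists go together. By count, 22 members were in both first replicates alone and 1 in both second ones, beside 4 and 2 in the crossed pairs, and the labels do not say that a number marks a shared batch. The bait difference over all families kept its sign under every alternative run, from 0.354 with merged peaks to 4.29 without peaks on abundant RNA genes, but with 2 lists a bait no p could pass a threshold. The baits overlapped with merged peaks and on the chromosomes present in all 4 files. The value of 4.29 was reached with the scaffold peaks of HSPA8 still counted. Leaving out pseudogenes of 1000 bp or more, chosen after seeing the data, gave 221 members. Matching by strand was not run because the gene table has no strand.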
